A study of Mus musculus with 4 samples.

Results

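ATP-binding cassette (ABC) transporters were examined in bulge stem cells of the mouse hair follicle after treatment with CSA, set against the same cells after vehicle. The members were taken by symbol: every row of the value table that the platform annotation gives to exactly 1 gene, where that symbol is Abc, a letter from a to g and a number. This gave 49 rows of 48 genes in 7 subfamilies, of 21780 rows with 1 gene and 28815 rows in all. Abcb5 had 2 rows. Tap1, Tap2 and Cftr, which belong to the family under other names, are given separately.

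The 2 groups were CSA (100 mg/kg, injected into the peritoneum for 3 days) and vehicle, each with 2 biological replicates. All 4 samples came from male CD-1 mice at postnatal day 56, whose follicles rest at that age in the second telogen, and the cells had been sorted for CD34 together with alpha6 integrin. The labels name neither the vehicle's composition nor the number of mice behind each sample, and CSA is given only as an abbreviation. It is the usual short form of cyclosporine A, an inhibitor of calcineurin, and the series title names calcineurin.

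ABC transporters bind and split ATP to carry lipids, bile salts, peptides, conjugates and drugs across membranes. Subfamily B holds P-glycoprotein, the multidrug pump that cyclosporine is known both to use as an exit and to inhibit. Humans have a single gene for that pump, ABCB1, while the mouse has a pair, Abcb1a and Abcb1b. Abcg2, the breast cancer resistance protein, exports the dye Hoechst and so defines the "side population" by which stem cells of several tissues have been sorted, and Abca12 loads lipid into the lamellar granules of the epidermis.

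The values are on a log scale taken as log2, and the authors had centred each row on an unnamed baseline. A value states how far a row stood from its own baseline, so levels cannot be compared between genes and none of them shows whether a gene was expressed. The number of arrays is known, while no depth or signal over background is given by which to judge the precision. Of 10 fixed bulge markers the median was 0.38 and 1.15 on the CSA arrays, against 0.97 and 1.26 on the vehicle arrays. Of the genes of the sort markers, Cd34 stood at 1.75 and 3.60 on the CSA arrays, against 4.05 and 4.25 on the vehicle arrays, and Itga6 at -0.70 and -0.53 on the CSA arrays, against -0.9995 and 0.083 on the vehicle arrays. The array pair of CSA replicate 2 and vehicle replicate 2 correlated over rows with r = 0.554, while all other pairs lay between 0.0409 and 0.198. Vehicle replicate 1 stood apart most often: it held the highest value in 42.4% of all rows with 1 gene.

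The promoters below belong to 4 genes. Abcb1a and Abcb1b are the neighbouring genes of the pump that cyclosporine binds. Abca1 with Abcb1b made up the members 1.5-fold apart with no overlap between the groups. Abce1 with Abcb1b had an unadjusted limma p under 0.05. Abca1 and Abce1 were thus picked by their values in these data, and none of the 4 passed limma's adjusted test. Each sequence is the 250 bases before the start site in RefSeq's GRCm38.p6, read 5′ to 3′ on the gene's own strand. They lie at chr5:8566841-8567090 (plus strand) for Abcb1a, chr5:8797897-8798146 (plus strand) for Abcb1b, chr4:53159896-53160145 (minus strand) for Abca1 and chr8:79711741-79711990 (minus strand) for Abce1. Capitals mark matches on either strand to the CCAAT box (CCAAT), the GC box (GGGCGG) or the E-box (CACGTG).
Abcb1a: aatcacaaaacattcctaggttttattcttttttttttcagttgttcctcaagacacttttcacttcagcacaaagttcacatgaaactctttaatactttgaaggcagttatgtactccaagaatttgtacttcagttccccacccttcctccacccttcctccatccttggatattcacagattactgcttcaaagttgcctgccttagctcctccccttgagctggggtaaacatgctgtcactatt
Abcb1b: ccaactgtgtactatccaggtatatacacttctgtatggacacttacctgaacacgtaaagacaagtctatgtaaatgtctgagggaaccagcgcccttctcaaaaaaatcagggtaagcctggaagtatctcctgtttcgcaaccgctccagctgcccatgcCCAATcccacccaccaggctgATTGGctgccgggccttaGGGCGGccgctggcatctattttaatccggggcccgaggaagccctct
Abca1: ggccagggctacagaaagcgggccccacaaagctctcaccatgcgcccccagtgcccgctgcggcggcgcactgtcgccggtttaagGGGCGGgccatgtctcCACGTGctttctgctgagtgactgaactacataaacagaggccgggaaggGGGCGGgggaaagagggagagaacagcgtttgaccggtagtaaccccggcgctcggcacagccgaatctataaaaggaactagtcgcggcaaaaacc
Abce1: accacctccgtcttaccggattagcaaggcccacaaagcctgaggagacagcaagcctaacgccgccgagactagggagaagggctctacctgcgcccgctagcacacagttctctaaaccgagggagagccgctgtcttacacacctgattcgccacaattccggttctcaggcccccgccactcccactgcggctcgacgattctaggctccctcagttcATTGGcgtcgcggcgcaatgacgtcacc
The window of Abcb1b held 2 CCAAT matches, 1 on each strand, and 1 GC box. That of Abca1 held 2 GC boxes and 1 E-box, that of Abce1 1 CCAAT match, and that of Abcb1a none of these. Among all 32851 windows of this length that RefSeq's file gave, 33.8% held a CCAAT match, 32.7% a GC box and 6.02% an E-box. GGAAA, the core that NFAT factors bind, occurred once among the 4 windows, in that of Abca1 just after its second GC box, and in 55.6% of all windows. Over the 45 windows of 38 member genes, GGAAA was in 26, the GC box in 20, CCAAT in 13 and the E-box in 5. TGANTCA, the AP-1 motif, was in 0 of these 45 windows and in 6.75% of all. A match is a description of letters and not a bound site, and its absence says only that the letters are not in this window.

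Across the family the differences between CSA and vehicle were small and mostly negative among rows near their baselines. They were mostly positive among the 14 rows that left the baseline by more than 0.5 on an array (9 higher and 5 lower, median 0.32). Vehicle replicate 1 was the lowest array in 7 of these 14 rows. A contrast in this direction was not particular to the family. Of all rows with 1 gene, 42% were higher in CSA, but only 33.6% of those within 0.5 of the baseline on every array. Of the 49 rows 15 were higher and 34 lower in CSA, which is 69.4% lower, against 58.0% lower of all rows with 1 gene. The median difference, CSA minus vehicle, was -0.081 over the ABC rows and -0.041 over all rows. Without vehicle replicate 1 the ABC median was 0.0065 and that of all rows 0.010. No row of the table passed the test: limma called 0 of 21780 rows at an adjusted p under 0.05, a background of 0%, and each ABC row had an adjusted p of 0.999. At an unadjusted p under 0.05 limma gave 646 rows (2.97%, with 1.91% higher and 1.06% lower in CSA), of which 2 were ABC rows, Abcb1b and Abce1, both higher. In these bulk samples fewer cells of a type and less RNA per cell cannot be told apart.

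**Figure D1:**
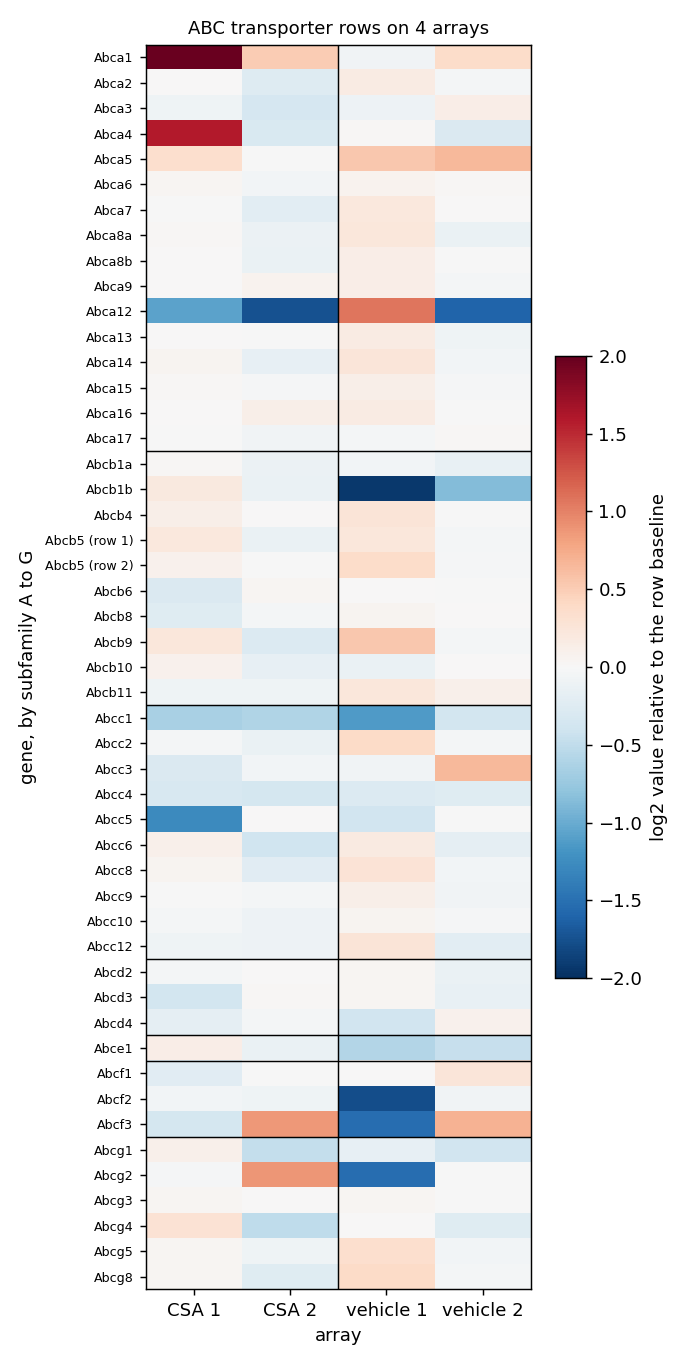
Heat map of the 49 ABC rows (rows, grouped by subfamily A to G) on the 4 arrays (columns, CSA replicates 1 and 2, then vehicle replicates 1 and 2); colour is the log2 value relative to the row's baseline, from -2 (blue) to 2 (red). Most rows are pale on every array, and the strong colours sit in Abca1, Abca4, Abca12, Abcb1b, Abcc1, Abcc5, Abcf2, Abcf3 and Abcg2.

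Most members stayed near their baselines. In 35 of the 49 rows (71.4%, against 64.8% of all rows) every array lay within 0.5 of the baseline, and 29 of those 35 were lower in CSA (82.9%, against 66.4% of all rows equally close to their baselines), with differences from -0.28 to 0.084. Vehicle replicate 1 was the highest array in 25 of the 35, which is 71.4%, against 55.1% of all rows equally close to their baselines. Over the whole family it was the highest in 27 of 49 (55.1%, against 42.4% of all rows) and CSA replicate 2 the lowest in 23 (46.9%, against 32.3%). The groups did not overlap in 10 ABC rows, 3 higher and 7 lower in CSA, while 26.5% of all rows did not overlap, 11.3% higher and 15.2% lower. With at least 1.5-fold between the means as well, 2 ABC rows remained, Abca1 and Abcb1b, both higher in CSA. The background of that count was 6.28% of all rows in both directions, 4.16% higher and 2.11% lower in CSA, so the family's share was no larger than that of the table.

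**Figure D2:**
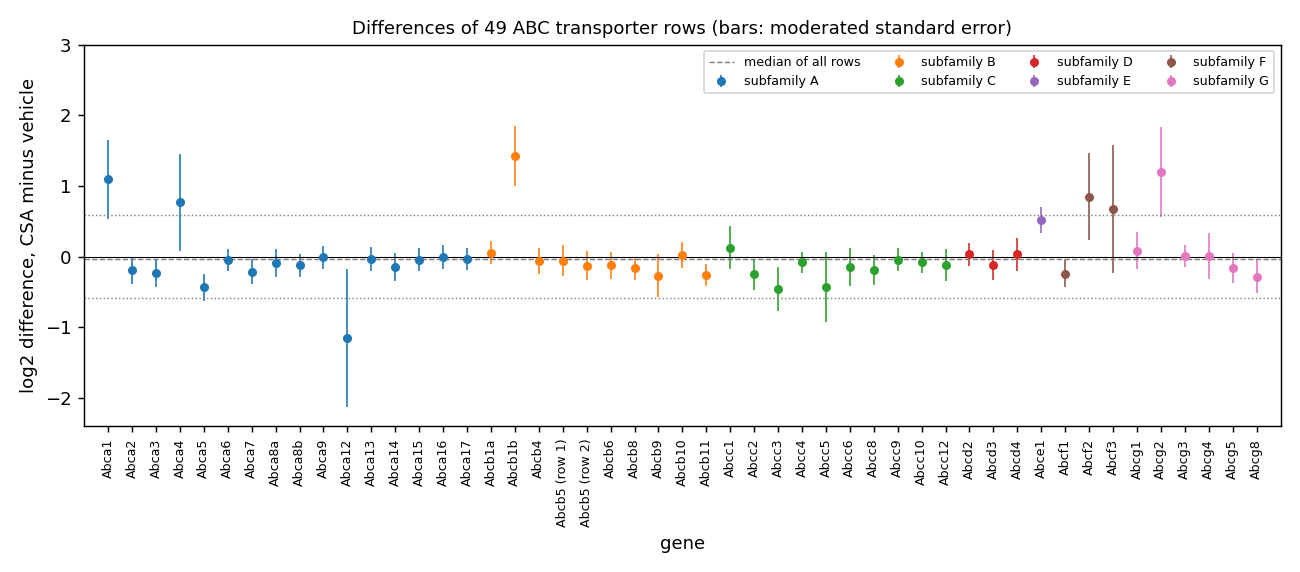
Log2 difference, CSA minus vehicle (vertical axis), of each ABC row (horizontal axis, coloured by subfamily), with limma's moderated standard error as the bar; dotted lines mark 1.5-fold in either direction and the dashed line the median of all rows. Abcb1b (1.43), Abcg2 (1.20) and Abca1 (1.09) stand highest and Abca12 (-1.15) lowest.

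Of the 2 genes for P-glycoprotein, Abcb1b had the largest difference of the family in size. It stood at 0.19 and -0.13 on the CSA arrays, against -1.93 and -0.86 on the vehicle arrays. Both CSA arrays lay close to the baseline, both vehicle arrays lay below it, and the groups did not overlap. The means were 0.030 in CSA and -1.40 in vehicle, a difference of 1.43 ± 0.42 (the standard error moderated by limma, n = 2 arrays in each group, as after every ± here) and a fold of 2.69. The unadjusted 95% interval was 0.27 to 2.59, the unadjusted limma p 0.0269 and the limma adjusted p 0.999. An ordinary test without moderation gave Abcb1b an unadjusted p of 0.125. By size the difference exceeded that of 99.3% of all rows. Leaving out vehicle replicate 1, the lower of the vehicle arrays, gave 0.89, and leaving out vehicle replicate 2 gave 1.96.

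Abcb1a, the neighbouring gene on chromosome 5, stood at 0.028 and -0.12 on the CSA arrays, against -0.056 and -0.14 on the vehicle arrays. All 4 arrays lay within 0.2 of each other and the groups overlapped, with a difference of 0.056 ± 0.16 and an unadjusted interval of -0.39 to 0.50. Whether the differences of the 2 genes differ from each other was not tested. Their coding sequences are close relatives, and how far the probes of either row also bind the RNA of its neighbour was not tested. Abcb4, which follows Abcb1b on the chromosome and flips phosphatidylcholine into bile, stood at 0.12 and 0.015 on the CSA arrays, against 0.26 and -0.015 on the vehicle arrays; the groups overlapped (-0.060 ± 0.18). Of 8 endothelial markers, a cell type that carries P-glycoprotein in the vessel wall, 0 were higher and 8 lower in CSA, with medians of -0.015 and -0.10 on the CSA arrays, against 0.19 and -0.012 on the vehicle arrays. On every array 7 of the 8 lay within 0.5 of their baselines, and 66.4% of all rows equally close were lower. Vehicle replicate 1 was the highest array in 7 of the 8. The median difference of the 8 was -0.14, and -0.04 without vehicle replicate 1. The part of endothelial cells in the values of Abcb1a and Abcb1b was not tested.

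Abcg2 had the second largest difference, and its groups overlapped. It stood at -0.026 and 0.88 on the CSA arrays, against -1.53 and -0.013 on the vehicle arrays. CSA replicate 2 was the highest and vehicle replicate 1 by far the lowest array, while the remaining CSA and vehicle arrays were almost equal. The difference was 1.20 ± 0.64 with an unadjusted interval of -0.57 to 2.96 (limma adjusted p = 0.999). Without vehicle replicate 1 it was 0.44 and without CSA replicate 2 it was 0.74.

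Subfamily C holds the multidrug resistance proteins, which export conjugates of glutathione and organic anions, and also the sulfonylurea receptors Abcc8 and Abcc9. Of its 10 rows 9 were lower in CSA (90%, against 58% of all rows), with a median of -0.13 and a range of -0.46 to 0.12. That median was -0.042 without vehicle replicate 1. On every array 7 of the 10 rows lay within 0.5 of their baselines, and 66.4% of all rows equally close were lower. Vehicle replicate 1 was the highest array in 6 of the 10. The only row of the subfamily higher in CSA was Abcc1, which carries leukotriene C4 among others. It stood at -0.64 and -0.61 on the CSA arrays, against -1.13 and -0.37 on the vehicle arrays, below the baseline everywhere, with the vehicle arrays on either side of CSA. The difference, 0.12 ± 0.31, changed sign to -0.049 under quantile normalization and to -0.25 without vehicle replicate 1.

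Abcc3, a basolateral exporter of bile salts and glucuronides, had the lowest difference of the subfamily, -0.46 ± 0.31, from -0.29 and -0.057 on the CSA arrays, against -0.075 and 0.65 on the vehicle arrays. Vehicle replicate 2 alone was high, and without it the difference was -0.097. Abcc5, an exporter of cyclic nucleotides, stood at -1.28 and 0.015 on the CSA arrays, against -0.38 and -0.015 on the vehicle arrays. Only CSA replicate 1 was far below the baseline; the difference of -0.43 ± 0.50 became 0.21 without it. Abcc4, which carries prostaglandins and cyclic nucleotides, was -0.32 and -0.36 on the CSA arrays, against -0.27 and -0.24 on the vehicle arrays. The groups did not overlap, yet all 4 arrays lay close together and the difference was -0.081 ± 0.15.

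In further members of subfamily C vehicle replicate 1 was the highest array. Abcc2, the exporter of the bile canaliculus, stood at -0.033 and -0.13 on the CSA arrays, against 0.38 and -0.037 on the vehicle arrays (-0.25 ± 0.21). Abcc6, whose loss in humans leads to calcified elastic tissue (pseudoxanthoma elasticum), stood at 0.11 and -0.39 on the CSA arrays, against 0.18 and -0.17 on the vehicle arrays (-0.15 ± 0.26). The groups overlapped in both genes. Abcc9, a sulfonylurea receptor of potassium channels, stood at -0.0086 and -0.044 on the CSA arrays, against 0.11 and -0.068 on the vehicle arrays (-0.047 ± 0.16). The pore genes that pair with the sulfonylurea receptors, Kcnj8 and Kcnj11, differed by -0.26 ± 0.23 and -0.17 ± 0.22.

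**Figure D3:**
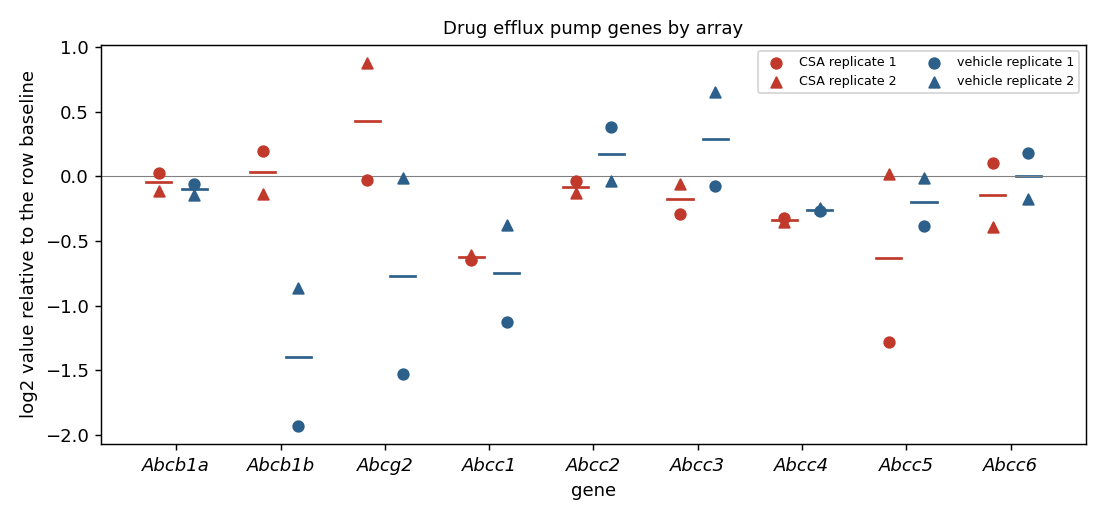
Values of 9 drug efflux pump genes (horizontal axis) as log2 relative to each row's baseline (vertical axis); red is CSA and blue vehicle, circles are replicate 1 and triangles replicate 2, and each short line is the mean of a group. Among the 9 genes the groups part widely only in Abcb1b, where both CSA arrays lie above both vehicle arrays; in Abcg2 the lowest CSA value (-0.026) is close to the higher vehicle value (-0.013).

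Besides Abcb1b, every row of subfamily B except Abcb9 stayed within 0.5 of its baseline on all arrays. The subfamily had 3 rows higher and 7 lower in CSA (70% lower, against 58% of all rows). Its median was -0.092, and 0.037 without vehicle replicate 1. Abcb5, known in humans as a marker of melanoma-initiating and limbal stem cells, gave 1 row at 0.21 and -0.14 on the CSA arrays, against 0.23 and -0.047 on the vehicle arrays and another at 0.091 and -0.0092 on the CSA arrays, against 0.36 and -0.018 on the vehicle arrays. The rows agreed in showing overlapping groups, with differences of -0.058 ± 0.22 and -0.13 ± 0.21; the first turned to 0.010 after quantile normalization. Abcb9, a lysosomal peptide transporter, had the lowest difference of the subfamily (-0.27 ± 0.30), from 0.23 and -0.27 on the CSA arrays, against 0.53 and -0.033 on the vehicle arrays. Vehicle replicate 1 was again the highest array, and without it the difference was 0.014.

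Abcb6, tied to porphyrin transport, stood at -0.29 and 0.046 on the CSA arrays, against 0.0096 and -0.0096 on the vehicle arrays and differed by -0.12 ± 0.19, which became 0.046 without CSA replicate 1. The mitochondrial transporters Abcb8 and Abcb10 differed by -0.17 ± 0.17 and 0.023 ± 0.18. Of the heme and iron-sulfur cluster genes, 8 rows of 7 genes, 7 rows were higher in CSA (87.5%, against 42% of all rows). Their median was 0.34, with 0 passing limma's adjusted test. Glrx5, a glutaredoxin of mitochondrial cluster assembly, stood at 0.014 and 0.39 on the CSA arrays, against -0.93 and -0.19 on the vehicle arrays (0.76 ± 0.33). Alas1, the first enzyme of heme synthesis, stood at 0.14 and 0.13 on the CSA arrays, against -0.27 and -0.074 on the vehicle arrays (0.30 ± 0.17). Vehicle replicate 1 was the lowest array in both genes, and without it the list's median was 0.097.

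In subfamily A, whose members carry lipids, 14 of 16 rows were lower in CSA (87.5%, against 58% of all rows). The median was -0.071, and 0.015 without vehicle replicate 1. On every array 12 of the 16 rows lay within 0.5 of their baselines, and 66.4% of all rows equally close were lower. Vehicle replicate 1 was the highest array in 11 of the 16 and CSA replicate 2 the lowest in 11. Abca1, which hands cholesterol and phospholipid to apolipoprotein A-I, had the highest difference of the subfamily. It stood at 1.97 and 0.51 on the CSA arrays, against -0.070 and 0.36 on the vehicle arrays. Both CSA arrays were above both vehicle arrays, but CSA replicate 1 lay far above CSA replicate 2, which itself was only a little above vehicle replicate 2. The difference was 1.09 ± 0.56 (a fold of 2.13, unadjusted interval -0.44 to 2.63, limma adjusted p = 0.999), and 0.36 without CSA replicate 1. Abca4, a retinoid flippase of photoreceptors, was singled out after its values were seen. It stood at 1.58 and -0.30 on the CSA arrays, against 0.021 and -0.29 on the vehicle arrays, high on CSA replicate 1 only.

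Abcg1, which works beside Abca1 in cholesterol export, stood at 0.10 and -0.47 on the CSA arrays, against -0.16 and -0.38 on the vehicle arrays. Of its CSA arrays 1 was above and 1 below both vehicle arrays, and the difference was 0.084 ± 0.26. Of 10 measured partners in cholesterol efflux 6 were higher and 4 lower in CSA, with 0 passing limma's adjusted test and a median of 0.065, which was -0.037 without vehicle replicate 1. Npc2, which binds cholesterol in the lysosome, stood at 0.047 and 0.52 on the CSA arrays, against -0.33 and 0.085 on the vehicle arrays (0.41 ± 0.27). Lcat, which esterifies cholesterol in plasma, stood at -0.48 and -0.066 on the CSA arrays, against -0.47 and 1.13 on the vehicle arrays (-0.60 ± 0.60). Of 7 myeloid markers, a cell type rich in Abca1 and Abcg1, 3 were higher and 4 lower in CSA, with medians of 0.027 and -0.16 on the CSA arrays, against 0.23 and -0.053 on the vehicle arrays. Their part in the values of Abca1 was not tested.

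Abca12, the transporter mutated in human harlequin ichthyosis, had the lowest difference of the family. It stood at -1.08 and -1.75 on the CSA arrays, against 1.07 and -1.60 on the vehicle arrays. Vehicle replicate 1 was far above all other arrays, and vehicle replicate 2 lay between the CSA arrays. The difference of -1.15 ± 0.98 (unadjusted interval -3.84 to 1.55) changed sign to 0.19 when vehicle replicate 1 was left out, and leaving out vehicle replicate 2 gave -2.48. Of 10 markers of differentiated epidermis, cells outside the bulge in which Abca12 is made, 9 were lower in CSA, against 58% of all rows. Vehicle replicate 1 was the highest array for 9 of the 10 markers, against 42.4% of all rows. Their medians were -0.98 and -0.79 on the CSA arrays, against 0.42 and -0.49 on the vehicle arrays. The part of such cells in the values of Abca12 was not tested.

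**Figure D4:**
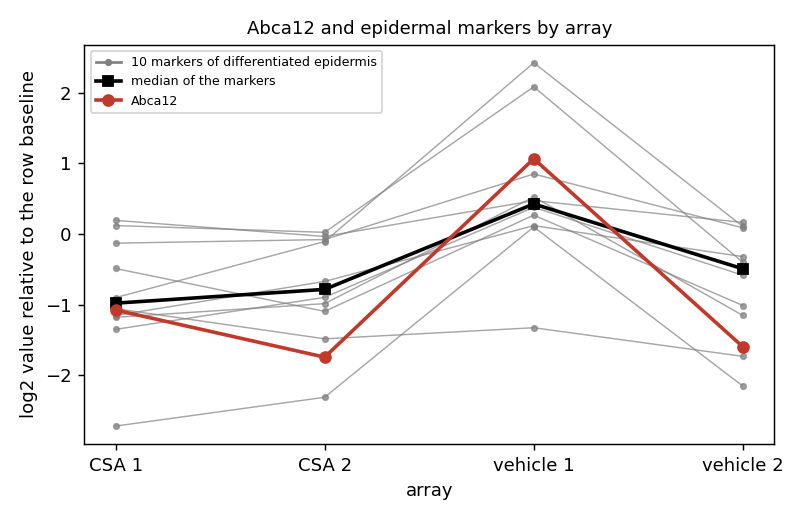
Abca12 (red circles) and 10 markers of differentiated epidermis (grey, their median in black squares) on the 4 arrays (horizontal axis), as log2 values relative to each row's baseline (vertical axis); lines join the values of a gene. Abca12 is at 1.07 on vehicle replicate 1 and at or below -1.08 on the other arrays, and the markers' median is 0.42 there and at or below -0.49 elsewhere.

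Several members of subfamily A lie side by side in the genome. Abca8b, Abca8a, Abca9, Abca6 and Abca5 follow each other on chromosome 11 with no other protein-coding gene between them. All 5 were lower in CSA, against 58% of all rows, with differences from -0.44 to -0.011. On every array 4 of the 5 lay within 0.5 of their baselines, and 66.4% of all rows equally close were lower. Vehicle replicate 1 was the highest array in 4 of the 5. Only Abca5, whose loss in humans is tied to excessive hair growth, left the baseline by more than 0.5. Abca5 stood at 0.33 and -0.0041 on the CSA arrays, against 0.54 and 0.65 on the vehicle arrays; the groups did not overlap, and the difference was -0.44 ± 0.19 (it was named after its values were seen). Abca14, Abca15 and Abca16, neighbours on chromosome 7, differed by -0.15, -0.044 and -0.010, and vehicle replicate 1 was the highest array for each. Abca2, which acts on lipids in lysosomes, stood at 0.0061 and -0.27 on the CSA arrays, against 0.17 and -0.041 on the vehicle arrays (-0.19 ± 0.19), and the other rows of the subfamily not named here all lay within 0.5 of their baselines.

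Subfamilies E and F have no membrane span and act on ribosomes. Abce1, which splits ribosomes after termination, stood at 0.13 and -0.13 on the CSA arrays, against -0.58 and -0.46 on the vehicle arrays. Both CSA arrays lay near the baseline and both vehicle arrays below it, without overlap. The difference was 0.52 ± 0.18, a fold of 1.43, with an unadjusted interval of 0.016 to 1.02 and a limma adjusted p of 0.999. It ranged from 0.39 to 0.65 over the 4 fits that left out an array. In an ordinary test without moderation the unadjusted p of Abce1 was 0.0705.

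In subfamily F 2 of 3 rows were higher in CSA, and vehicle replicate 1 was the lowest array for both. Abcf2 stood at -0.061 and -0.088 on the CSA arrays, against -1.77 and -0.073 on the vehicle arrays, so that 3 arrays were nearly equal. Its difference of 0.85 ± 0.62 was -0.0013 without vehicle replicate 1. Abcf3, related to the yeast protein Gcn20, which works with the amino acid sensor Gcn2, stood at -0.35 and 0.87 on the CSA arrays, against -1.53 and 0.69 on the vehicle arrays; the arrays parted by replicate number and not by group (named after its values were seen). Abcf1, which binds initiation factor eIF2, stood at -0.23 and -0.0062 on the CSA arrays, against 0.0062 and 0.25 on the vehicle arrays (-0.24 ± 0.19), without overlap.

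Of the translation partners of these proteins, 8 rows of 6 genes, 5 rows were higher and 3 lower in CSA, and 0 passed limma's adjusted test. The median was 0.28, and 0.0096 without vehicle replicate 1. Eif2ak4, the kinase Gcn2, stood at 0.73 and 0.027 on the CSA arrays, against -0.082 and -0.14 on the vehicle arrays (0.49 ± 0.29). Eif2s2, the beta subunit of eIF2, stood at 0.26 and -0.083 on the CSA arrays, against -0.39 and -0.12 on the vehicle arrays in the row with the larger absolute moderated t (0.35 ± 0.22).

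The transporters of subfamily D bring long and branched chain fatty acids into peroxisomes or, in Abcd4, cobalamin out of lysosomes. All 3 measured rows stayed within 0.5 of the baseline. Abcd2 stood at -0.035 and 0.014 on the CSA arrays, against 0.046 and -0.14 on the vehicle arrays (0.034 ± 0.16), and Abcd3 at -0.36 and 0.018 on the CSA arrays, against 0.040 and -0.14 on the vehicle arrays (-0.12 ± 0.21). The groups overlapped in each. Of 8 peroxisomal partners 3 were higher and 5 lower in CSA (median -0.0076, and 0.036 after quantile normalization), with 0 passing limma's adjusted test. Pex19, the import receptor for peroxisomal membrane proteins, stood at -0.53 and -0.060 on the CSA arrays, against 0.083 and 0.15 on the vehicle arrays (-0.41 ± 0.22). Acaa1a, a thiolase of peroxisomal beta-oxidation, stood at -0.39 and -0.021 on the CSA arrays, against 0.071 and 0.20 on the vehicle arrays (-0.34 ± 0.20).

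Beyond Abcg2, the differences in subfamily G were small, and several of its members carry sterols. Abcg5 and Abcg8, which form 1 sterol pump and are adjacent on chromosome 17, differed by -0.16 ± 0.21 and -0.28 ± 0.23. Abcg8 had the lowest difference of the subfamily, from 0.034 and -0.25 on the CSA arrays, against 0.39 and -0.034 on the vehicle arrays, with vehicle replicate 1 the highest array. Of the 6 rows 4 were higher in CSA, 2 of them, Abcg3 and Abcg4, by less than 0.01, and the median was 0.0089. That median was -0.21 without CSA replicate 1 and 0.20 without CSA replicate 2.

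Family members under other names were lower in CSA, 3 of 3, against 58% of all rows, with none passing limma's adjusted test. Tap1, a subunit of the peptide transporter for antigen presentation, stood at -0.97 and -0.21 on the CSA arrays, against -0.17 and -0.35 on the vehicle arrays (-0.33 ± 0.31). Tap2, its partner, stood at -0.0078 and -0.42 on the CSA arrays, against 0.031 and -0.012 on the vehicle arrays (-0.22 ± 0.21). Cftr, the chloride channel, differed by -0.045 ± 0.15.

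The genes that regulate ABC transporters, 16 of 17 listed, were higher in 6 and lower in 10, with a median of -0.066 that was 0.048 without vehicle replicate 1. None passed limma's adjusted test. Nfe2l2, the transcription factor Nrf2 of the oxidant response, stood at -1.52 and -0.21 on the CSA arrays, against -0.071 and 0.071 on the vehicle arrays (-0.87 ± 0.49), lower on both CSA arrays and most of all on CSA replicate 1. Keap1, its inhibitor, stood at -0.69 and -0.076 on the CSA arrays, against 0.076 and 0.27 on the vehicle arrays (-0.56 ± 0.27). The nuclear receptor Nr1i2, which senses xenobiotics and induces Abcb1 genes, stood at 0.15 and 0.0090 on the CSA arrays, against 0.25 and -0.045 on the vehicle arrays. The oxysterol receptor gene Nr1h3 and Rxra, the gene of its partner, differed by -0.21 ± 0.17 and 0.017 ± 0.29; these 3 were chosen for their role after values were seen.

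Of 10 glutathione and conjugation genes, which supply substrates of subfamily C, 8 were higher and 2 lower in CSA (median 0.22, -0.012 without CSA replicate 2 and 0.067 without vehicle replicate 1). The 2 lower ones had the largest absolute moderated t, and none passed limma's adjusted test. Gstp1, a glutathione transferase, stood at -1.38 and -0.018 on the CSA arrays, against 0.25 and 0.19 on the vehicle arrays (-0.92 ± 0.50). Mgst1, a transferase of membranes and also a gene of sebaceous cells, stood at -0.060 and -0.066 on the CSA arrays, against 0.80 and 0.060 on the vehicle arrays (-0.49 ± 0.30). Of 9 solute carriers of drugs and organic ions 4 were higher and 5 lower in CSA, with none passing. Their median was -0.058, -0.25 and 0.057 without CSA replicates 1 and 2, and 0.065 and -0.36 without vehicle replicates 1 and 2. The carnitine carrier Slc22a5 stood at -0.72 and 0.016 on the CSA arrays, against 1.05 and 0.25 on the vehicle arrays (-0.998 ± 0.41) without overlap. Slco3a1, an organic anion carrier, stood at -0.92 and -0.67 on the CSA arrays, against 0.12 and -0.94 on the vehicle arrays (-0.39 ± 0.41).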

How the data were processed

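RNA of sorted bulge cells was hybridised to 4 arrays of 1 colour, after 1 round of amplification from 20 ng and labelling with biotin, per the labels' protocols. The deposited values are log2 values by assumption, since the authors did not name the base, and were centred per row by the authors on an unnamed baseline. The sources used here name no array software, background correction or normalization. The build in the submitters' processing notes is mm8.

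Rows were named by the platform annotation (21780 with 1 gene, 1605 with several, 5430 not listed), and all 49 member rows were found by gene ID in RefSeq's GRCm38.p6 table, used for names and gene order. Of the 48 genes 38 had a promoter entry. limma 3.58.1 in R 4.3.3 (lmFit, eBayes without trend, no block, no filter, two-sided) was fitted on the 21780 rows, with Benjamini-Hochberg adjustment at 0.05; the prior degrees of freedom were 2.05. It was also run on simulated data with arrays drawn independently, unlike the correlated arrays here. That run does not give the share of true changes that would be called in these data. Rows were also counted where groups stood 1.5-fold apart without overlap. Rows, not genes, were the unit. Values on every array are given for a set of known drug, skin and lipid transporters, members 1.5-fold apart without overlap or at an unadjusted p under 0.05, the highest and lowest of each subfamily, Abcb5 with its 2 rows, and up to 2 genes of each partner list; others are said to be chosen later. The members and lists were chosen with earlier results of these data known. Marker lists differed by medians, with the range over fits leaving out an array, of -0.089 (-0.053 to -0.019) for melanocytes, -0.11 (-0.18 to 0.095) for sebocytes, -0.11 (-0.20 to -0.016) for fibroblasts and -0.33 (-0.77 to -0.026) for the bulge. The sebocyte median was positive without vehicle replicate 1. The alternatives were scaling, replicates left out, rows per gene, a filter, the variance model and a replicate block.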

Additional observations from a re-analysis of the deposited data

How the results depend on the processing

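limma called 0 rows of the table under all 13 alternatives run, among them eBayes with a trend and an ordinary test, with a smallest adjusted p of 0.467 (without CSA replicate 2). Rows at an unadjusted p under 0.05 numbered 453 to 1653 against 646, with 1020 under a replicate block, 1318 without CSA replicate 2 and 1653 without vehicle replicate 2. The labels do not pair arrays by number. Deviations of same-numbered arrays correlated at 0.221 over rows, and with the replicate block limma again called 0 rows (smallest adjusted p 0.86). Under that block the unadjusted limma p was 0.0151 for Abcg2, 0.0508 for Abcb1b and 0.0645 for Abce1. The 2 ABC rows 1.5-fold apart without overlap stayed 2 under quantile normalization, with centred arrays, with 1 value per gene and at 2-fold. They were 3 to 6 with an array left out, where 1 array against 2 overlaps less often, and 10 with no minimum difference. Among rows at or above the 25th percentile of the mean they were 1 (Abca1), as that filter left out Abcb1b, Abcg2, Abce1, Abca12 and Abcf2. The values are centred per row, so their mean does not track abundance and the filter does not sort rows by expression. The family's median difference ranged from -0.125 to 0.0065 with an array left out; the positive value, without vehicle replicate 1, was the only sign change, and 16 and 17 ABC rows were higher in CSA after quantile normalization and with centred arrays, against 15 as deposited, while the share of all rows higher in CSA was 47% and 47.1%, against 42% as deposited. Of 313 differences of named rows under alternatives 20 changed sign, 18 of them with an array left out, and 0 passed. After quantile normalization that of the first Abcb5 row was 0.010 and that of Abcc1 -0.049. With an array left out the ranges were -2.48 to 0.19 for Abca12, -0.015 to 0.13 for Abcb1a, -0.20 to 0.080 for Abcb4, -0.29 to 0.046 for Abcb6, -0.55 to 0.014 for Abcb9, -0.25 to 0.50 for Abcc1, -1.08 to 0.21 for Abcc5, -0.40 to 0.10 for Abcc6, -0.14 to 0.042 for Abcc9, -0.056 to 0.12 for Abcd2, -0.31 to 0.070 for Abcd3, -0.0013 to 1.70 for Abcf2, -0.20 to 0.37 for Abcg1, and -0.23 to 0.12 and -0.32 to 0.059 for the rows of Abcb5. The cause was not tested. Medians of subfamilies and lists without each array were added after the data were seen. With 1 array left in a group, that array is assumed to vary like the other group. Signal over background is unknown, so rows near the baseline cannot be told from rows without signal.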
